A study of Mus musculus with 3 samples.

Results

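The nuclear genes of the mitochondrial respiratory chain and of ATP synthase were taken as all genes whose symbol starts with Nduf (complex I), Uqcr (complex III), Atp5 (ATP synthase), Sdh and 1 further letter (complex II), or Cox and a digit from 4 to 8 (complex IV), where the platform annotation gives a probe set that 1 symbol. This gave 90 genes of the 18193 on the array with such a probe set. A gene with several probe sets was read from the one whose mean intensity was highest. Of the 90, 86 passed an intensity filter and were tested: 76 subunits, 8 complex I assembly factors (Ndufaf1 to Ndufaf8) that help to build the complex without remaining in it, and the paralogs Cox7a2l and Ndufa4l2. The 4 genes under the filter are all alternative forms of complex IV subunits: Cox4i2, Cox7b2, Cox8b and Cox8c.

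The tissue was the epithelium that covers the lymphoid follicles of the small intestine in untreated C57BL/6 mice, and RNA was hybridised to 3 Affymetrix arrays. One array, with n = 1 for its group, came from wild type mice, and 2 came from mice in which a Villin-driven Cre had removed floxed Rbpj (VillinCre-Rbpjflox/flox), here KO1 and KO2 (the first and second in the figures), after their labels. Villin drives Cre in intestinal epithelium, so that other cells in the sample keep an intact gene. RBP-J is the DNA-binding protein of Notch signalling, and the comparison addresses which genes differ in this epithelium without it. The labels do not say whether the samples were single animals or pools, so any spread between the depleted arrays may be technical.

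Complexes I and II pass electrons from NADH and succinate to ubiquinone, complex III passes them on to cytochrome c, and complex IV to oxygen. Complexes I, III and IV pump protons, and ATP synthase uses the resulting gradient to make ATP. Most subunits are encoded in the nucleus, and transcription factors that bind their promoters, among them NRF1, are known to control many of them together. Absorptive epithelium uses this ATP for sodium-driven nutrient uptake.

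Intensities are multiples of each array's median. Differences are on the log2(value + 0.248) scale, depleted minus wild type, and the overall shift, the median over all 11885 genes tested, was -0.003 in KO1 and 0.22 in KO2. Rbpj, the targeted gene, read 7.15 in wild type, 2.72 in KO1 and 5.74 in KO2, and the position of its probe set relative to the floxed exons was not examined. The epithelial markers Epcam, Vil1, Cdh1, Krt8, Krt18, Krt19, Krt20 and Cldn7 all exceeded wild type in both KO1 and KO2 and summed to 664, 766 and 873. Of all genes tested, 39.0% exceeded wild type in both. So did 606 of 1120 other genes in the members' middle intensity range, described below. Vil1 lay below the overall shift in KO2. The sex-linked genes Xist (0.297, 42.8 and 43.4) and Eif2s3y (20.6, 0.122 and 0.056) split the arrays exactly as the genotype does, so that sex and genotype cannot be told apart. The ratio of 3' to 5' Gapdh probe sets, a sign of RNA quality, was 1.83 in wild type, 2.28 in KO1 and 1.54 in KO2.

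RefSeq promoters of the GRCm38.p6 build, from 250 bases before to 50 after the start, were found for 74 of the 90 genes, and 17 of the 74 (23.0%) hold the NRF1 motif, which is GCGC, any base and TGCGC, on either strand. The motif is in 11.3% of the 9616 tested genes with a promoter and in 5.19% of the 27025 genes in the table. The motif of YY1 (AAGATGGCG, either strand) is in 7 of the 74 (9.46%) against 3.60% of tested genes, and that of ETS factors (CCGGAAGT, either strand) in 5 (6.76%) against 8.91%. The searched motifs were not checked for overlap with one another, and a match is a description of letters, not a binding site. The 250 bases before the start are printed for 4 genes named below, on the strand of the gene, with NRF1 matches in capitals. Of the 86 genes, Ndufa8 has the largest difference in KO2 and Ndufaf4 the largest in KO1. Atp5g2 is lower in KO1 and higher in KO2, as are 43 of the 86, and Sdha holds 3 matches, as does Ndufb4. The regions are chr2:36049339-36049588 (minus strand) for Ndufa8, chr4:24897833-24898082 (plus strand) for Ndufaf4, chr15:102671048-102671297 (minus strand) for Atp5g2 and chr13:74350241-74350490 (minus strand) for Sdha.
Ndufa8: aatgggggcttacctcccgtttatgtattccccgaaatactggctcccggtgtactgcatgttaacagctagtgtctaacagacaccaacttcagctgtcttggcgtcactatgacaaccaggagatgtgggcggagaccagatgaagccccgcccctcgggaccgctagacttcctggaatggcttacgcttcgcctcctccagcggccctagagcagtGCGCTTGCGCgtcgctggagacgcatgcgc
Ndufaf4: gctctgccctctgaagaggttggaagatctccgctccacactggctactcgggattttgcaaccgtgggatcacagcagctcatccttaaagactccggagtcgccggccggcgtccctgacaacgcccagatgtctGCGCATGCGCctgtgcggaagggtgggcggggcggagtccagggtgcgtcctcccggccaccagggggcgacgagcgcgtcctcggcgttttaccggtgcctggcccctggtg
Atp5g2: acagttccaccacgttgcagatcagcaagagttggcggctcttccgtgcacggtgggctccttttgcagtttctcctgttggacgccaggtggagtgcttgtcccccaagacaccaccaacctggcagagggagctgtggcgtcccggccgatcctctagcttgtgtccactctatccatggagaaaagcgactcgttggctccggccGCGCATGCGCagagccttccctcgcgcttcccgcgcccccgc
Sdha: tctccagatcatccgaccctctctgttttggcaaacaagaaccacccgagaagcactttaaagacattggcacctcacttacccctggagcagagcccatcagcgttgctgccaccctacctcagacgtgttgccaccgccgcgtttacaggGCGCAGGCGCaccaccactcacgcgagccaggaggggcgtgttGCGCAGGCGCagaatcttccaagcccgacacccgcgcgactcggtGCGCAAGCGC
The 17 genes with the NRF1 motif, all tested, had median differences of -0.045 in KO1 and 0.36 in KO2, and the 55 tested genes with a promoter but no match had -0.02 and 0.35.

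No respiratory chain gene was called between depleted and wild type epithelium. Genes called elsewhere on the array included the sex-linked Xist, Eif2s3y, Kdm5d and Uty. In limma with Benjamini-Hochberg adjustment over all 11885 genes, 0 of 86 had an adjusted p under 0.05, where 0.0841% of all genes did, and all 86 had an adjusted p = 0.9997. At an unadjusted limma p under 0.05 the count was also 0 of 86, against 2.27% of all genes, and eBayes without a trend called 0 as well. None differed 2-fold or more the same way in KO1 and KO2, against 1.33% of all genes. Past 2-fold in a single array, 0 genes were higher in KO1 (3.19% of all genes), 0 higher in KO2 (3.56%), 0 lower in KO2 (1.64%) and 1 lower in KO1 (3.23%). Such differences were rarer among genes about as bright. Of 1120 other genes in the members' middle intensity range, described below, 12 were past 2-fold in either direction in KO1, 11 in KO2 and 2 the same way in both. The lowest unadjusted p of the group, from limma, was 0.169, for Ndufaf4. Standard errors ran from 0.35 to 0.63 with a median of 0.41, and the 95% intervals of single genes reached from as low as -1.54 to as high as 1.70, which leaves room for differences of either sign that 3 arrays could not detect.

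The depleted arrays differed from each other in these genes. In KO1, 42 of 86 genes exceeded wild type (49.8% of all genes did) with a median difference of -0.0073. In KO2, 84 of 86 did (69.7% of all genes), with a median of 0.35. Lower in KO1 and higher in KO2 were 43 of 86 (30.7% of all genes), higher in both 41 (39.0%), and lower in both 1, Ndufaf4 (19.5%). The median intensity of the genes was 40.8 in wild type, 40.5 in KO1 and 55.2 in KO2. Against each array's own overall shift, 42 of 86 lay above it in KO1 and 68 of 86 in KO2 (50.0% of all genes in each), and 36 lay above it in both (29.9%) and 12 below it in both (29.9%). Among genes of the members' middle intensity range, described below, 41.8% lay above it in both and 13.3% below it in both, close to the members' shares. Both comparisons share the wild type array. Read directly against each other, 81 of 86 genes were higher in KO2 than in KO1, by a median of 0.41 over the 86, against 66.9% of all genes.

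**Figure D1:**
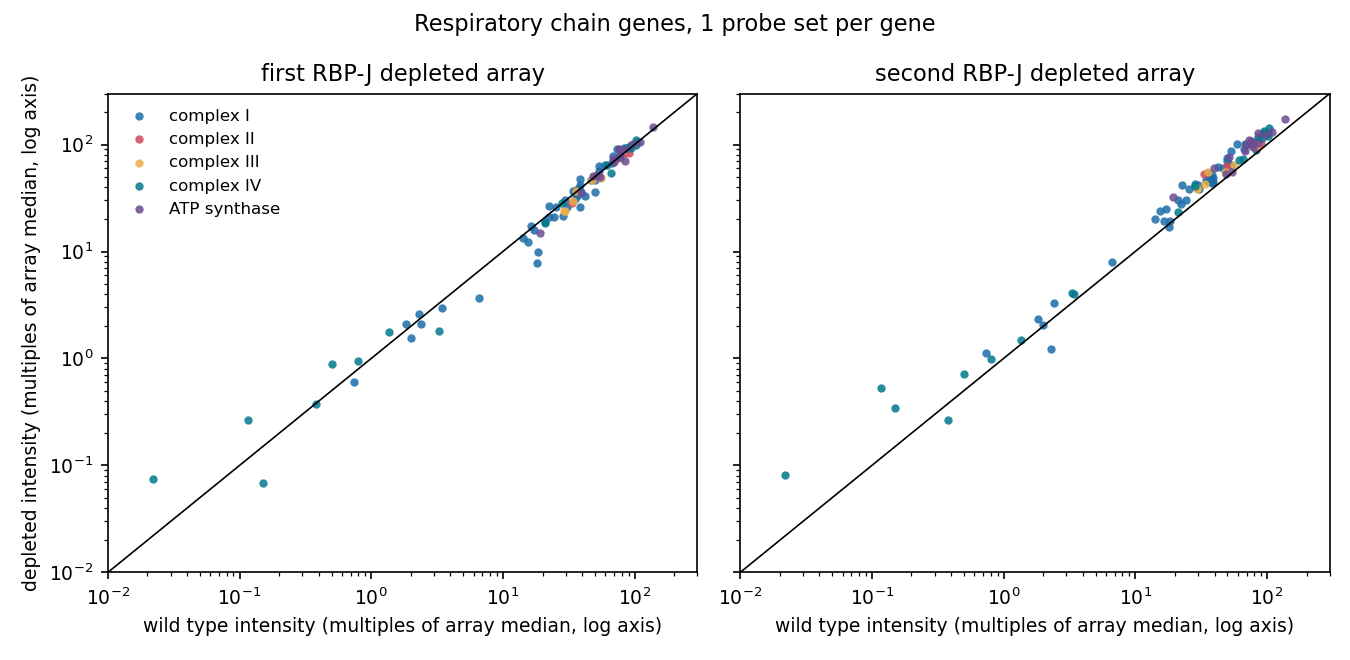
Intensity of each of the 90 respiratory chain genes in the wild type array (x axis) and in KO1 (left) or KO2 (right) (y axis), in multiples of the array median on log axes, coloured by complex, with the line of equal values. Points scatter around the line on the left (42 of 86 tested genes higher) and lie mostly above it on the right (84 of 86 higher).

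The size of that difference depends on the scaling between arrays. These genes read well above the array median, and other genes that did so were also mostly higher in KO2: of the 1120 tested genes with means between 26.3 and 85.7, the middle range of the members, 90.5% were higher than wild type there, with medians of 0.05 in KO1 and 0.34 in KO2. In that range 59.2% lay above the shift in KO1 and 69.3% in KO2, 41.2% were lower than wild type in KO1, and 79.9% were higher in KO2 than in KO1. For the members' counts these shares are the nearer background. With the arrays quantile normalized, the members' medians were -0.09 and 0.04, 46 of 86 were higher in KO2 than in wild type, and 59 of 86 were higher there than in KO1, against 50.6% of all genes. With the same 75th percentile per array, the medians were 0.04 and 0.16. Split by intensity, members with means from 20 to 40 had a median of -0.18 in KO1 where other genes of that range had 0.01, and 0.41 against 0.32 in KO2. For those over 80, the values were 0.06 against 0.09 and 0.35 against 0.37.

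**Figure D2:**
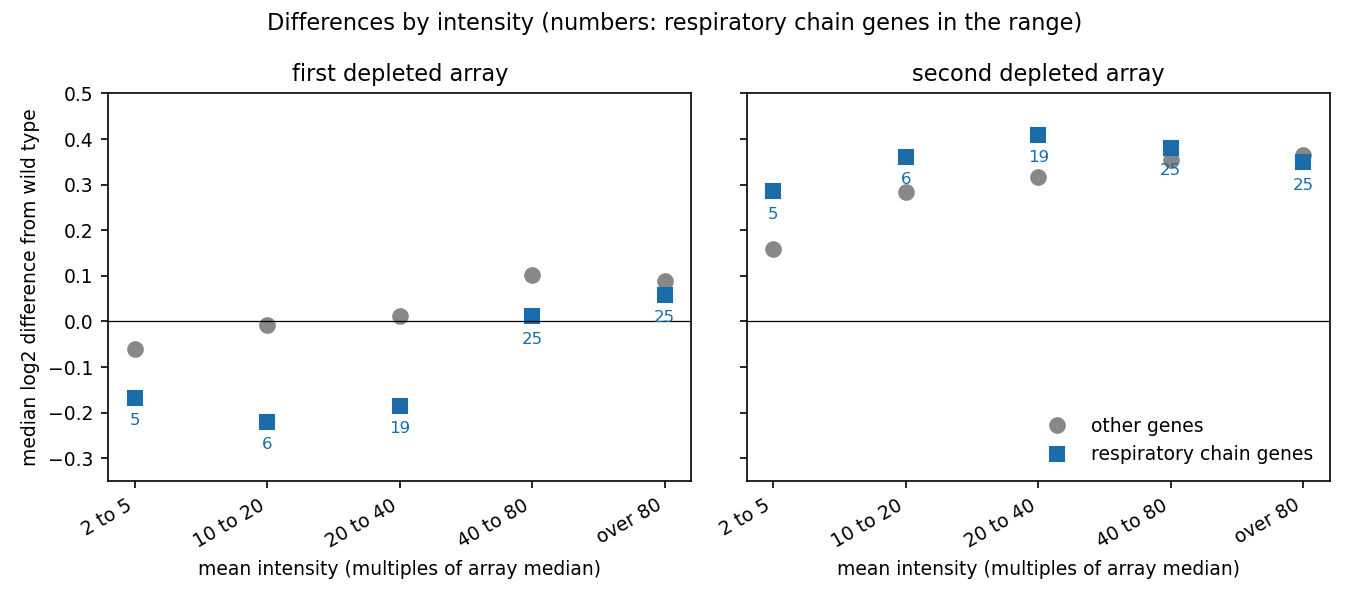
Median log2 difference from wild type (y axis) of respiratory chain genes (squares, with their number) and of other tested genes (circles) in ranges of mean intensity (x axis, multiples of the array median) that hold at least 5 respiratory chain genes, for KO1 (left) and KO2 (right). In the 20 to 40 range the 19 respiratory chain genes had -0.18 and 0.41 against 0.01 and 0.32 in other genes, and over 80 the medians were 0.06 and 0.35 against 0.09 and 0.37.

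Complex I, the NADH dehydrogenase, was represented by 34 tested subunits, with median differences of 0.01 in KO1 and 0.46 in KO2. In KO2, 30 of the 34 lay above the overall shift (50.0% of all genes, and 69.3% in the members' middle intensity range). The complex's KO2 median was positive under each scaling tried, down to 0.09 with quantile normalization, while its KO1 median turned to -0.066 there. The 6 core subunits, which carry the flavin and iron-sulphur clusters or lie in the catalytic arm, had medians of -0.03 and 0.47.

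Ndufs1, the largest subunit and a carrier of iron-sulphur clusters, read 14.2 in wild type, 13.4 in KO1 and 20.03 in KO2. Ndufv1, which binds NADH and the flavin, read 29.7, 29.98 and 42.2, and its partner Ndufv2 read 36.7, 33.3 and 44.3. In these probe sets, the 3 genes of the NADH-oxidising module were close to wild type in KO1 and higher in KO2. Ndufs3, of the peripheral arm, read 28.6, 21.3 and 42.6. The iron-sulphur subunits Ndufs7 and Ndufs8, which lie toward the ubiquinone site, read 34.2, 36.8 and 46.6, and 22.3, 26.4 and 27.8. In the probe sets used, KO2 was the highest of the 3 arrays for each of the 6 core genes. KO1 was below wild type for 3 of them. Dimmer probe sets of Ndufv1 (15.9, 11.3 and 23.5) and Ndufs7 (9.25, 7.30 and 17.5) had KO1 below wild type. The further probe sets of Ndufs8 lay on both sides of wild type in KO1.

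Among the 28 supernumerary subunits, which surround and stabilise the core, medians were 0.01 and 0.46, and KO1 was on either side of wild type. Ndufa3 read 53.3, 62.4 and 86.3, Ndufb7 74.0, 91.7 and 102, and Ndufb11 68.4, 78.4 and 100.2. These 3 had the largest smaller difference above the shift of both arrays. For Ndufa3 the difference was 0.46 (SE 0.39, 95% interval -0.30 to 1.22, limma adjusted p = 0.9997), with both depleted arrays above wild type in this probe set. A second Ndufa3 probe set read 47.8, 45.1 and 61.7, with KO1 below wild type, and a dim one 1.58, 3.52 and 0.855. A dimmer Ndufb11 probe set likewise had KO1 below wild type, with 16.3, 13.8 and 26.5. Ndufb11 and Ndufa1 (53.8, 56.2 and 64.0) are X-linked, and wild type and depleted arrays differ in sex-linked genes; the part of this in their values was not tested. Ndufc1, a small membrane subunit, read 83.4, 84.5 and 109.

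Other supernumerary subunits, chosen after their values were seen, differed between the depleted arrays. Ndufa8 read 22.5, 20.9 and 42.2, near wild type in KO1 and 0.90 higher on the log2 scale in KO2. Ndufa13, also known as GRIM-19, read 59.2, 63.9 and 100.3. Ndufa9 read 38.6, 26.3 and 43.9 and Ndufv3 49.9, 36.2 and 70.2, low in KO1 and above wild type in KO2. Ndufb4 was the only subunit of the 76 below wild type in KO2, with 2.31, 2.61 and 1.23 in a dim probe set.

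The 8 assembly factors of complex I had a lower median KO1 difference than the 76 subunits, whose median there was 0.01. They were also dimmer, with a median wild type intensity of 5.05 against 49.0. The 17 members with a mean under 20 had a KO1 median of -0.17, where 10021 other genes under 20 had -0.02. These 17 include every assembly factor except Ndufaf8, so their median is not a separate comparison for the assembly factors. Neither the gap nor the part of intensity in it was tested. The medians of the assembly factors were -0.26 and 0.24. In KO1, 1 of 8 was higher than wild type (49.8% of all genes), Ndufaf6 with 1.84, 2.10 and 2.35. Under the 3 other scalings the KO1 median stayed between -0.26 and -0.22, and the KO2 median turned to -0.03 when arrays were scaled to genes with a mean of at least 5. All 8 were higher in KO2 than in KO1 (66.9% of all genes).

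Ndufaf4, which acts early in assembly of the peripheral arm, read 18.1 in wild type, 7.76 in KO1 and 17.0 in KO2. It was the 1 gene past 2-fold in KO1, and its limma difference was -0.64 (SE 0.46, 95% interval -1.54 to 0.27, adjusted p = 0.9997). Without KO1 it was -0.082, so that the value rests on that array. A dimmer Ndufaf4 probe set read 6.85, 5.75 and 7.08. Ndufaf2, a late assembly factor, read 18.5, 9.998 and 19.4, and Ndufaf3, a partner of Ndufaf4, chosen after its values were seen, read 6.64, 3.70 and 8.01. These 3 assembly factors were low in KO1 and near or above wild type in KO2. Ndufaf1 read 1.99, 1.56 and 2.05. KO1 had the highest Gapdh 3' to 5' ratio of the arrays and the lowest sum of 7 B cell markers (39.8, 17.2 and 39.2). The median difference of these markers was below 0 in both depleted arrays, with -1.21 in KO1 and -0.36 in KO2. The part of RNA quality and of B cells in the assembly factor values was not tested. In bulk RNA, fewer cells of a type and less RNA per cell cannot be told apart.

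**Figure D3:**
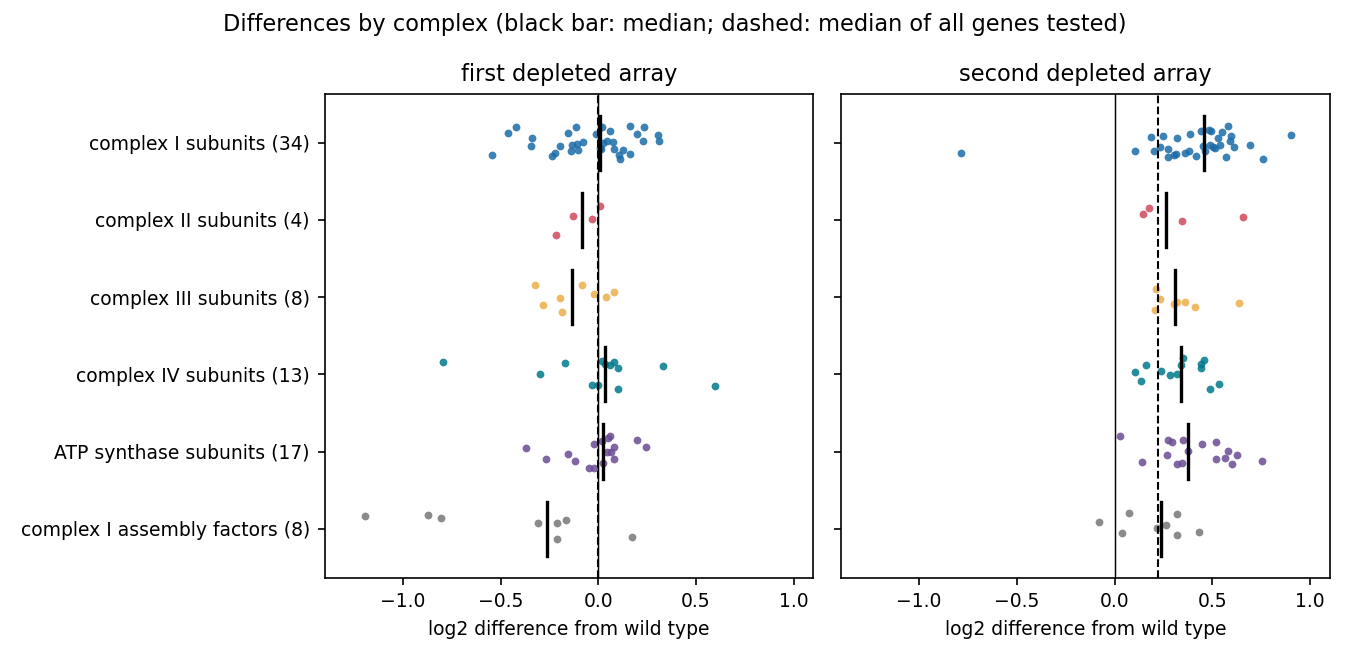
Log2 difference from wild type (x axis) of each tested subunit by complex, with the number of genes, and of complex I assembly factors, in KO1 (left) and KO2 (right); bars are medians, the dashed line is the median over all genes tested, and vertical scatter is for display only. Medians in KO2 ran from 0.24 in assembly factors to 0.46 in complex I, with quantile normalization from -0.13 in complex II to 0.09 in complex I.

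Complex II, succinate dehydrogenase, also belongs to the citric acid cycle, and its 4 genes had medians of -0.08 and 0.26, and the KO2 median turned to -0.13 with quantile normalization and to -0.02 when scaled to genes with a mean of at least 5. With probe sets whose ID does not end in _x_at or _s_at it was 0.57. Sdha, the flavoprotein that oxidises succinate, read 90.8, 82.9 and 100.4. Sdhb, which carries the iron-sulphur clusters, read 49.4, 49.8 and 62.7. The membrane anchors Sdhc and Sdhd, which bind ubiquinone, read 33.2, 28.6 and 52.5, and 84.6, 82.7 and 95.8. KO2 was the highest for all 4 genes, and the probe sets used for Sdha and Sdhd lay below the overall shift in both depleted arrays. A dimmer Sdhd probe set read 44.7, 37.0 and 67.6, above the shift in KO2. For Sdha the limma difference was 0.007 (SE 0.37, 95% interval -0.72 to 0.73, adjusted p = 0.9997), and it turned negative under all 3 other scalings, between -0.24 and -0.06. A dimmer Sdha probe set read 43.7, 41.5 and 64.2, also above the shift in KO2.

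Complex III, the cytochrome bc1 complex, had 8 tested genes with medians of -0.13 and 0.31, of which the KO1 median stayed negative under the other scalings while the KO2 median turned to -0.07 with quantile normalization. In KO1, 2 of 8 exceeded wild type (49.8% of all genes). In KO2 all 8 did (69.7% of all genes, and 90.5% in the members' middle intensity range). Uqcrfs1, the Rieske iron-sulphur protein, read 29.3 in wild type, 24.0 in KO1 and 39.0 in KO2. The core proteins Uqcrc1 and Uqcrc2, related to mitochondrial processing peptidases, read 29.7, 23.7 and 38.2, and 47.6, 47.0 and 55.1. The Rieske protein and Uqcrc1 were thus below wild type in KO1 and above it in KO2. The 2 genes higher than wild type in both were Uqcrb, which lies near a ubiquinone site and read 84.2, 89.1 and 99.1, and Uqcrq, with 35.8, 36.8 and 55.9. Uqcrq had the largest difference of the complex (limma 0.34, SE 0.41, adjusted p = 0.9997), and the mean over its probe sets, of which the other 3 were dim and 2 of these under the filter, turned to -0.17. Uqcr10 read 56.1, 49.0 and 65.0, below the shift in both, in KO2 by 0.011. Its 2 dimmer probe sets read 15.97, 18.6 and 28.6, and 13.9, 13.5 and 23.02, above the shift in KO2. Uqcrh, the hinge protein, and Uqcr11 read 78.7, 74.2 and 97.1, and 34.1, 29.9 and 42.5.

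Complex IV, cytochrome c oxidase, had 13 tested subunits with medians of 0.03 and 0.34. Its 9 ubiquitous subunits, the forms used in most tissues, had medians of 0.03 and 0.44. All 9 lay above the overall shift in KO2 (50.0% of all genes, and 69.3% in the members' middle intensity range). With quantile normalization these medians were -0.045 and 0.047. Cox4i1, a regulatory subunit, read 86.1, 92.4 and 117, Cox5a 91.5, 95.2 and 116, and Cox5b 102, 99.7 and 120. Cox6a1 read 104, 107 and 143, Cox6b1 93.6, 93.4 and 127, and Cox6c 102, 109 and 127. Cox7a2 read 94.6, 99.9 and 132 and Cox8a 28.2, 28.7 and 41.0. All 8 were close to wild type in KO1 and higher in KO2, where 69.7% of all genes exceeded wild type. Cox7c, in a dim probe set, read 3.30, 1.80 and 4.07. Ndufa4, first assigned to complex I and later found in complex IV, read 66.2, 53.8 and 72.8 and lay below the shift in both.

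Tissue-specific forms of complex IV subunits replace the ubiquitous ones in muscle, testis or lung. Cox6a2, a heart and skeletal muscle form, read 1.35, 1.77 and 1.48. Cox6b2, a testis form, read 0.504, 0.888 and 0.709, where the difference depends on the pseudocount. Cox7a1, a muscle form, read 21.0, 18.6 and 23.5, well over the array median of 1 in all 3 arrays. The smooth muscle markers Acta2, Myh11, Des, Tagln and Cnn1 summed to 3.64, 2.42 and 2.98, with Myh11, Des and Cnn1 under the filter, and their part in the values of Cox7a1 was not tested. The 4 forms under the filter were dim in every array: Cox4i2, of lung, read 0.15, 0.068 and 0.344, Cox7b2 0.022, 0.075 and 0.081, Cox8b 0.378, 0.373 and 0.267, and Cox8c 0.117, 0.265 and 0.525. The paralogs Cox7a2l, a factor for supercomplexes of complexes III and IV, and Ndufa4l2, known as a hypoxia-induced gene, read 61.5, 64.0 and 71.4, and 0.798, 0.954 and 0.990.

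ATP synthase had 17 tested subunits with medians of 0.03 and 0.37, which turned to -0.05 and -0.03 with quantile normalization. All 17 exceeded wild type in KO2 (69.7% of all genes, and 90.5% in the members' middle intensity range). In KO1, 10 did (49.8% of all genes). In the F1 head, Atp5a1 and Atp5b form the catalytic ring. Atp5a1 read 138, 144 and 172. Its further probe sets read 112, 121 and 143, and 56.9, 46.6 and 82.0, the last with KO1 below wild type. Atp5b, whose subunit holds the catalytic sites, read 85.1, 70.7 and 127. Atp5b was thus below wild type in KO1 and above it in KO2, and the limma difference of 0.16 (SE 0.37, adjusted p = 0.9997) averages a lower and a higher value. Atp5c1 and Atp5e, of the rotating central stalk, read 69.4, 68.3 and 99.7, and 78.1, 77.0 and 95.9. Atp5d, also of that stalk, read 75.9, 90.0 and 109, above wild type and the shift in both, with a limma difference of 0.38 (SE 0.37, adjusted p = 0.9997).

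Subunit c, whose ring in the membrane turns with the passing protons, is encoded by 3 genes with one mature protein. Atp5g1 read 39.4, 35.3 and 60.8, Atp5g2 19.2, 14.8 and 32.5, and Atp5g3 109, 106 and 132. All 3 were below wild type in KO1 and above it in KO2, as were 30.7% of all genes. Their KO2 median was 0.62. With quantile normalization 2 of 3 were above wild type in KO2. Means over all probe sets turned the limma difference to -0.04 for Atp5g1 and -0.05 for Atp5g2, whose further probe sets were dim.

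The 4 subunits of the peripheral stalk had medians of 0.05 and 0.40, and the 5 other membrane subunits 0.08 and 0.34. Atp5j2 read 77.6, 88.9 and 100.5 and Atp5k 68.6, 72.5 and 87.1, both above the shift in both arrays. Atp5l read 54.2, 49.9 and 55.3, below the shift in both. The stalk subunits Atp5h, Atp5j, Atp5o and Atp5pb read 97.2, 101 and 124, then 73.3, 74.6 and 111, then 77.1, 79.6 and 105, and 48.6, 50.3 and 53.6. In these 4 probe sets wild type was lowest and KO2 highest. Second probe sets of Atp5h (52.7, 47.3 and 76.8), Atp5o (69.4, 67.8 and 90.3) and Atp5pb (39.03, 31.7 and 47.1) also had KO2 highest, but KO1 below wild type.

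**Figure D4:**
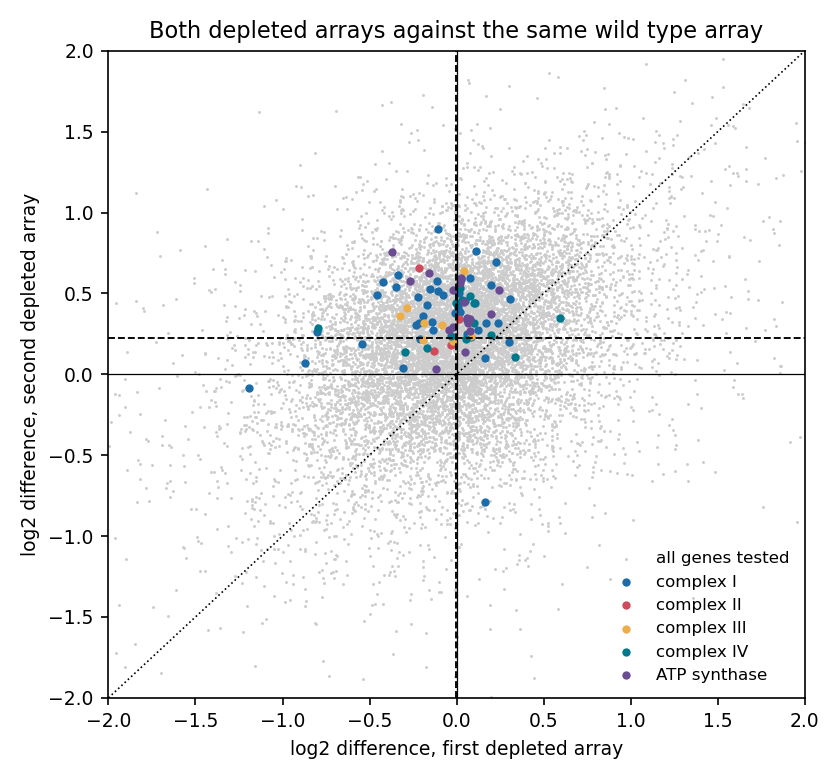
Log2 difference from wild type in KO1 (x axis) and KO2 (y axis) for all tested genes (grey) and respiratory chain genes (coloured by complex), with both axes sharing the wild type array; dashed lines are the medians over all genes, the dotted line marks equal differences, and genes beyond 2 are not drawn. Of 86 respiratory chain genes, 81 lie above the dotted line and 36 lie above both dashed lines, and quantile normalization lowers these counts to 59 and 13.

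Probe sets of one gene can be compared without more samples. For 48 genes, at least 2 probe sets (126 in all) passed the filter. All probe sets of a gene lay on the same side of wild type in 16 of the 48 genes in KO1 and in 38 of 48 in KO2. In KO2, 69.7% of all genes exceeded wild type, and 90.5% in the members' middle intensity range. The KO2 count therefore cannot separate agreement within a gene from the shift of that array. The same counts for other genes on the array were not made. The range within a gene had medians of 0.27 and 0.30, and reached 2.13 for Ndufa10 in KO1 and 1.42 for Ndufa3 in KO2. Of 59 further probe sets with a mean of at least 5, 40 gave a lower difference than the chosen one in KO1, and 43 a higher one in KO2. Their medians were -0.07 and 0.50 where the chosen probe sets of the same 41 genes had 0.05 and 0.35. Ndufb7 shows this, with the probe set given above and a dimmer one at 15.9, 11.8 and 31.4.

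**Figure D5:**
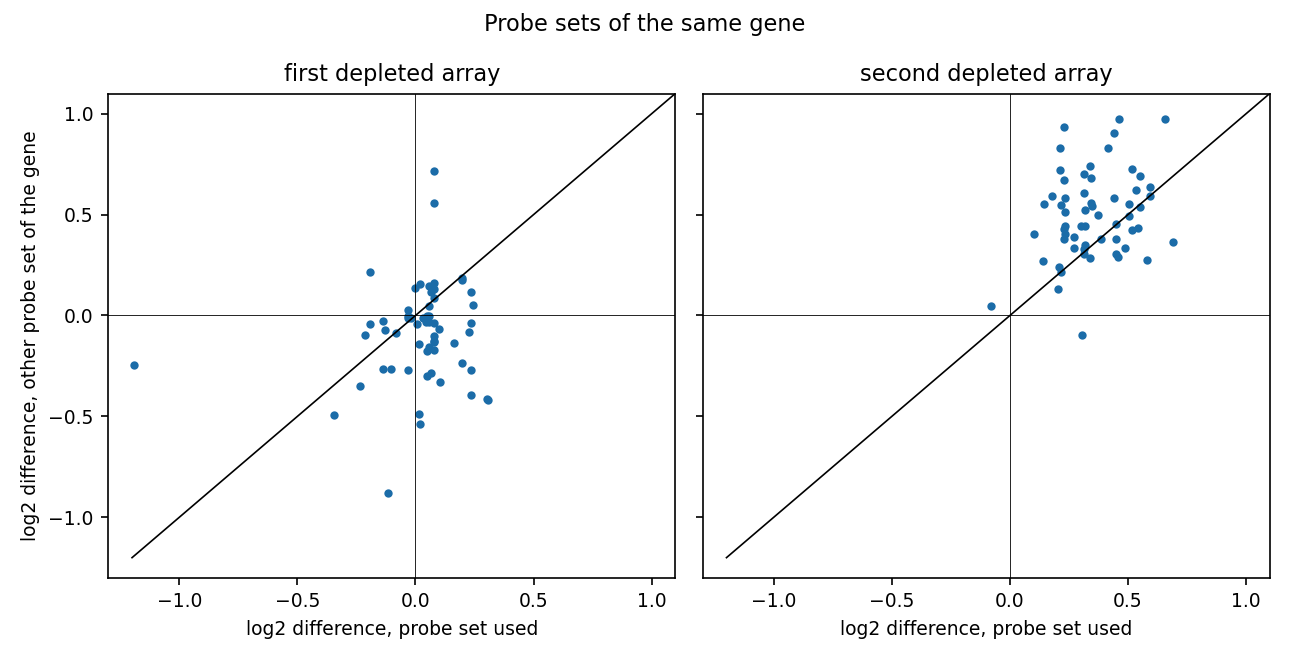
Log2 difference from wild type of the probe set used for a gene (x axis) and of each of its 59 further probe sets with a mean of at least 5 (y axis), in KO1 (left) and KO2 (right), with the line of equal values. On the left 40 of the 59 lie below the line and on the right 43 lie above it.

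Genes that work beside the chain had no calls. The 12 genes of the citric acid cycle had medians of -0.13 and 0.27, and 8 of 12 were lower than wild type in KO1 (50.2% of all genes). Cs, citrate synthase, had the highest KO1 difference of the 12 and read 66.4, 81.2 and 79.9. The 15 other electron carriers, cytochrome c and ubiquinone synthesis among them, had -0.10 and 0.34, and 30 assembly factors with other names -0.08 and 0.45. The 6 carriers and porins that pass adenine nucleotides and phosphate had -0.07 and 0.42, and the 13 genes of glycolysis 0.00 and 0.42. The 76 proteins of the mitochondrial ribosome had -0.21 and 0.35. Of these, 54 were lower than wild type in KO1 (50.2% of all genes) and 68 higher in KO2 (69.7%). The 42 proteins of the cytosolic ribosome had 0.04 and 0.38. Of the subunits encoded by mitochondrial DNA, ND5 was the 1 matched by symbol and read 100.4, 108 and 110. The 12 regulators of mitochondrial biogenesis had -0.19 and 0.02, with 2 of 12 above the overall shift in KO2 (50.0% of all genes). Among them, Nrf1, whose motif 17 of the 74 promoters hold, read 2.12, 1.67 and 2.16. Tfam, which packages mitochondrial DNA, read 6.18, 4.47 and 8.89, and Ppargc1a, a coactivator of biogenesis, read 5.26, 4.02 and 5.16. The numbers of limma calls in these lists were all 0, and of genes at an unadjusted limma p under 0.05 there was 1, in the mitochondrial ribosome. Of the cell type markers, 9 absorptive enterocyte genes had medians of 0.19 and 0.45, 7 M cell genes 0.01 and 0.38, 7 goblet cell genes 0.62 and 0.34, 7 B cell genes -1.21 and -0.36, 6 T cell genes -0.10 and 0.39, and 5 macrophage and dendritic cell genes -0.03 and 0.54; the 2 red blood cell genes found lay under the filter. Their part in the values of the respiratory chain was not tested.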

How the data were processed

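The series holds 3 arrays of total RNA, biotin-labelled as cRNA. The authors deposited linear intensities, for which the submitters' processing notes name MAS5. Each array has a median of 1 over its 45101 probe sets, by a scaling not given in the sources used here. No depth applies, and the number of arrays limits precision. Probe sets were named from the platform annotation (34945 with 1 symbol, 932 with several, 9160 unnamed, 64 controls); those with several symbols were not used. Genes with a mean under 0.598, the 40th percentile, were not tested.

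Values were tested as log2(value + 0.248), the pseudocount being the 25th percentile of all values. The test was lmFit and eBayes (intensity trend) in limma 3.58.1 (R 4.3.3), fitted to 1 wild type and 2 depleted arrays over 11885 genes. It was also run on simulated data, drawn with the fit's own variances, equal in all arrays of a gene, and with no shift between arrays. That run therefore could not check whether these conditions hold in the real arrays. With 1 residual and 600 prior degrees of freedom, the fit takes the single wild type array to vary as much as the depleted ones. Medians, counts and folds by array have no test.

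The members and lists were chosen with earlier results of these data known. Array values are given for catalytic, subunit c and tissue-specific genes, the highest-intensity gene per complex, and up to 3 genes per complex farthest above or below the overall shift in both depleted arrays; other members were added to fill out a role or after their values were seen. Alternatives were 2 other pseudocounts, 3 scalings, 2 filters, 2 rules for probe sets, no trend, subunits only, and leaving out each depleted array. Protein sequences were not used here.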

Additional observations from a re-analysis of the deposited data

How the results depend on the processing

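No member was called under the alternatives that allow a test, which leaving out a depleted array does not, and 0 were 2-fold in both depleted arrays under each one that keeps both arrays. Calls over all genes were 10, and 4 after quantile normalization, 4 with arrays set to one 75th percentile, 1 without a filter and 6 with the filter at the 60th percentile. Quantile normalization moved the members' KO2 median from 0.35 to 0.037, and less the overall shift from 0.12 to 0.022 (mean over KO1 and KO2 from 0.060 to -0.035). Under it 20 members lay above the shift in KO1 (42 before), 45 in KO2 (68) and 13 in both (36). Scaling to genes with a mean of at least 5 gave a KO2 median of 0.071. Leaving out either depleted array gave 0 to 1 members at 2-fold, 42 to 68 above the shift, medians from -0.0073 to 0.35, and from -0.0047 to 0.12 less the shift. The KO2 overall shift of 0.22 became 0.015 after quantile normalization, 0.041 with one 75th percentile and -0.044 with the third scaling. Named differences that turned negative after quantile normalization were Atp5a1 (-0.061), Atp5b (-0.079), Atp5g3 (-0.13), Atp5k (-0.031), Cox6c (-0.043), Ndufc1 (-0.032), Sdha (-0.24), Sdhb (-0.047), Sdhd (-0.17), Uqcr10 (-0.22), Uqcrb (-0.086), Uqcrc2 (-0.13) and Uqcrfs1 (-0.12). Scaled to genes with a mean of at least 5, Atp5g3 was -0.024, Sdha -0.13, Sdhd -0.065, Uqcr10 -0.13, Uqcrc2 -0.043 and Uqcrfs1 -0.075. With one 75th percentile, Sdha was -0.065, Uqcr10 -0.062 and Uqcrfs1 -0.0094. Averaging the probe sets of a gene gave -0.044 for Atp5g1, -0.051 for Atp5g2 and -0.17 for Uqcrq. Of 398 such named values, 365 counted as the same. Where a test was possible, this meant an unchanged direction and side of the threshold, and 25 changed direction. With a depleted array left out, it meant a value within 1 SE of the main one, so that the direction could differ, and 8 moved further. Without KO2, Uqcrfs1 went from 0.062 to -0.29 and still counted as the same. The causes were not tested. No paired analysis was possible because the wild type sample carries no replicate number and the group has 1 array.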
